A study of Mus musculus with 16 samples.

Results

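The genes described here are 42 listed genes of the citric acid (TCA) cycle and the respiratory chain: pyruvate dehydrogenase, the enzymes of the cycle, their cytosolic counterparts, and nuclear-encoded subunits of complexes I, II, III and IV. They were listed by name and role, with earlier results of these data known. Of the 42, 40 had a probe set that named them alone, out of 18820 genes measured in all. Pdha1 and Uqcrc2 were represented only by probe sets that also named a neighbouring gene, and they entered no test.

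RAW264.7 is a mouse macrophage-like cell line. Its cells received lipopolysaccharide (LPS, a bacterial cell wall component that activates macrophages) or docosahexaenoyl serotonin (DHA5HT, a conjugate of the fatty acid DHA with serotonin), and total RNA was read 24 h later on 16 Affymetrix whole-transcript arrays. The 4 groups of 4 arrays were vehicle control (ethanol), DHA5HT alone at 1 µM, LPS with vehicle at 1 µg/ml, and LPS with DHA5HT at the same doses. All arrays came from unmodified cells of this line kept in serum-containing medium, and a line in culture stands for no particular tissue macrophage. For array 1 of the LPS+DHA5HT group the title named both agents while the treatment field named DHA5HT alone; the title was followed. On that array Acod1, an LPS-induced enzyme, read 12.69 on the log2 scale, beside 12.76 to 12.78 on the LPS arrays and 7.30 to 8.56 on the DHA5HT arrays.

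The cycle oxidises acetyl groups that pyruvate dehydrogenase and other routes deliver, and hands the electrons to complex I as NADH and to complex II through succinate. Complexes III and IV pass them on to oxygen, and the proton gradient that builds up drives ATP synthase. In macrophages exposed to LPS the cycle is known for accumulating succinate and itaconate, the latter made from cis-aconitate by the enzyme that Acod1 encodes, and isocitrate dehydrogenase and succinate dehydrogenase are known as steps where the flow changes. The arrays measured RNA only, and neither metabolites nor enzyme activity. In bulk RNA, fewer cells expressing a gene and less of its RNA per cell cannot be told apart.

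Values are log2 intensities, so a difference of 1 is a doubling, and levels of different probe sets are not compared with each other. Array medians lay between 4.58 and 4.67. The median gene had a mean level of 5.24, and the group means of the 40 listed genes ran from 7.61 to 11.96. The median SD within a group was 0.0602 for the listed genes and 0.109 for all genes. The 8 measured macrophage markers had a median of 11.7, with Cd68 highest at 12.6. Mrc1 was lowest at 3.45, below the median of the markers of other cells, so its presence is not shown. The 17 measured markers of T cells, B cells, epithelium and fibroblasts had a median of 3.66 and reached at most 5.35 (Krt8). The median of the macrophage markers per array was 11.4 to 11.5 in control and 11.7 to 11.8 in LPS cells; its part in the results was not tested. On the second principal component, which held 4.72% of the variance, array 4 of LPS+DHA5HT stood apart at 22.4, where the other arrays lay between -10.0 and 9.36. Whether replicate arrays stand for separately cultured cells is not stated in the labels, so p-values measure the spread between these arrays only.

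LPS against control asks how the genes of oxidative metabolism differ after a day with LPS. The RNA of most of the cytosolic and complex I and II genes on the list was lower, and that of 2 subunits of the 2-oxoglutarate dehydrogenase complex was higher. Of the 40 genes, 14 fell and 2 rose at a Benjamini-Hochberg adjusted p below 0.05 in limma, taken over all 18820 genes; 15.8% of all genes fell and 12.6% rose by the same rule. The 14 are 35% of the list, above the share of all genes, and the 2 are 5%, below it. Among the genes brighter than the median gene, as the listed genes are, 28.6% fell and 20.9% rose. The median change of the list was -0.09, beside 0.00406 over all genes. With arrays centred on their medians the split among the listed genes was 5 higher and 9 lower in place of 2 and 14, and the median change of all genes was 0.05.

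The changes were small. The largest corresponded to a fold of 1.45, and 0 of the 40 genes changed by more than 1.5-fold. The LPS and control arrays did not overlap for 20 genes that read lower with LPS and 4 that read higher, where 16.1% and 13.7% of all genes showed the same.

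**Figure D1:**
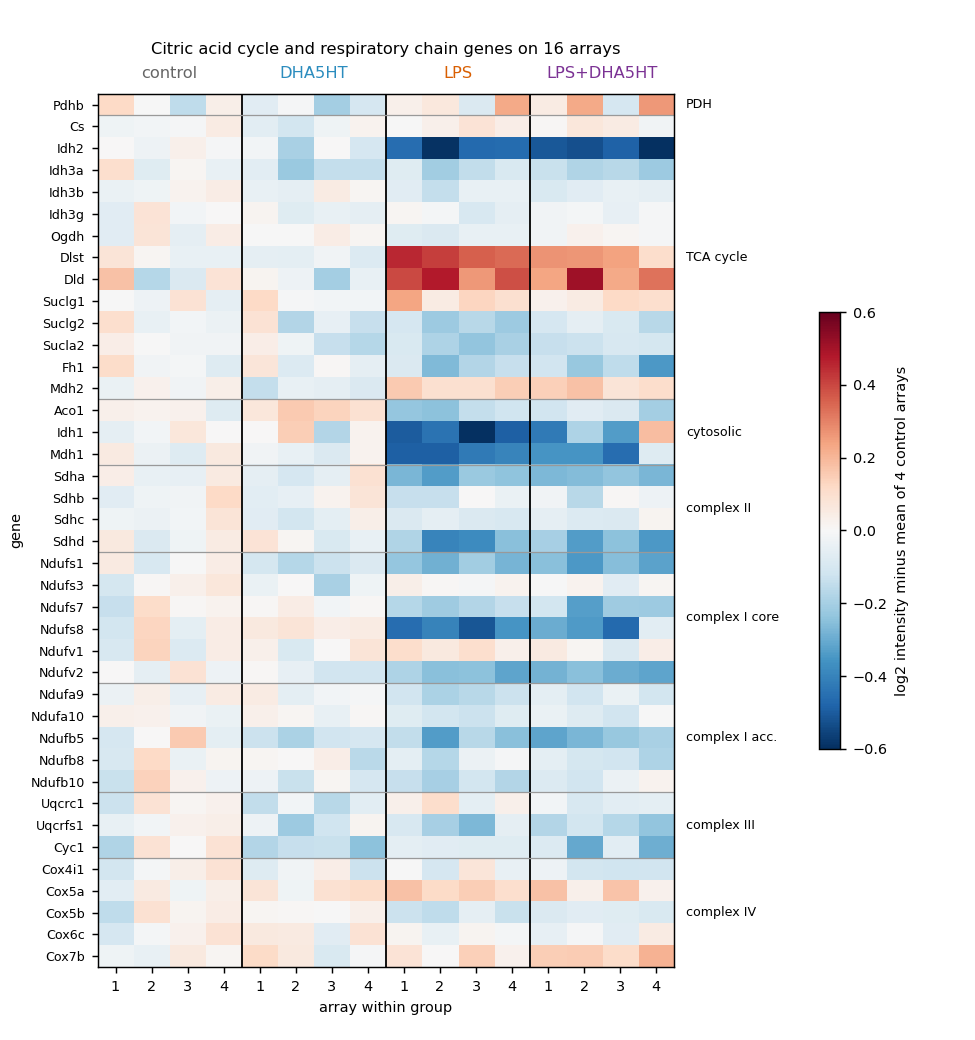
Log2 intensity of 40 citric acid cycle and respiratory chain genes (rows, grouped by role) on each of the 16 arrays (columns), as the difference from the mean of the 4 control arrays; blue is lower and red is higher. The LPS and LPS+DHA5HT columns are blue for Idh2, Mdh1, Sdha, Sdhd, Ndufs8 and Ndufv2 and red for Dlst and Dld, and array 4 of LPS+DHA5HT is red for Idh1.

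The promoters of 6 genes are shown because these genes moved together in both LPS comparisons with the largest changes: Idh2, Mdh1, Ndufs8 and Sdhd fell, and Dlst and Dld rose. The sequences are those of RefSeq on GRCm38.p6, from 250 bases before the annotated start to 50 bases after it, written 5′ to 3′ along the gene. Capitals mark letters that match the NF-Y box CCAAT, the ETS (GABP) core CCGGAAG, the NRF1 core GCGCATGC, the YY1 core AAGATGG or the ERR site AAGGTCA on either strand. These factors are known as regulators of nuclear genes for mitochondrial proteins. Idh2 lies on the minus strand at chr7:80115301-80115600, Mdh1 on the minus strand at chr11:21571885-21572184, Ndufs8 on the minus strand at chr19:3912725-3913024 and Sdhd on the minus strand at chr9:50603800-50604099. Dlst lies on the plus strand at chr12:85110583-85110882 and Dld on the minus strand at chr12:31351422-31351721.
Idh2: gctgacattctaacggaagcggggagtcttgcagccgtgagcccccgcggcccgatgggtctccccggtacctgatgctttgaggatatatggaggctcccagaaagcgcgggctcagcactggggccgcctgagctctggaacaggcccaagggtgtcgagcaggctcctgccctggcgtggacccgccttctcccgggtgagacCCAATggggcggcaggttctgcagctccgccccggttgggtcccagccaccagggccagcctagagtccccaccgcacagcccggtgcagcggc
Mdh1: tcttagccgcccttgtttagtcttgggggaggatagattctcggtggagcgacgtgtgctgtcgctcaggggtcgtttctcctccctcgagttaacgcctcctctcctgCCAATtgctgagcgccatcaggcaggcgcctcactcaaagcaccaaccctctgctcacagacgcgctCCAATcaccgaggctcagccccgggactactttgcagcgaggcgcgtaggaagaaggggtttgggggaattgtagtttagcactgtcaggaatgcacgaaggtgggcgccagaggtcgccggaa
Ndufs8: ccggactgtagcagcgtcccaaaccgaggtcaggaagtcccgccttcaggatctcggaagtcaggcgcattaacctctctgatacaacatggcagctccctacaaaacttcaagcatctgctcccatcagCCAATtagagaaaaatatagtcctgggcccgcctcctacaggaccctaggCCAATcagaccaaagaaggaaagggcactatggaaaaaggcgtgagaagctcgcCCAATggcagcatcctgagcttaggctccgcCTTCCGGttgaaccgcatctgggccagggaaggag
Sdhd: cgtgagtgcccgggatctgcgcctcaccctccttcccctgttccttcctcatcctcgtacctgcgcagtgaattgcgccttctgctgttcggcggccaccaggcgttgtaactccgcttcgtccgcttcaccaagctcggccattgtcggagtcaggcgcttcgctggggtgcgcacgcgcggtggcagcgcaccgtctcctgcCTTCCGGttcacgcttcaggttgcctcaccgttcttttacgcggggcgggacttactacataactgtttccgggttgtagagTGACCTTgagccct
Dlst: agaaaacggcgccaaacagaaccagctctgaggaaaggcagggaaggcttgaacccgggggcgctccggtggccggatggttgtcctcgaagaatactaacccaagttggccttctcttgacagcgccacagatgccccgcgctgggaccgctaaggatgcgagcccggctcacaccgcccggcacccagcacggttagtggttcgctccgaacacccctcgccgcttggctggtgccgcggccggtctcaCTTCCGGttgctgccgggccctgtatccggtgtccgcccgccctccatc
Dld: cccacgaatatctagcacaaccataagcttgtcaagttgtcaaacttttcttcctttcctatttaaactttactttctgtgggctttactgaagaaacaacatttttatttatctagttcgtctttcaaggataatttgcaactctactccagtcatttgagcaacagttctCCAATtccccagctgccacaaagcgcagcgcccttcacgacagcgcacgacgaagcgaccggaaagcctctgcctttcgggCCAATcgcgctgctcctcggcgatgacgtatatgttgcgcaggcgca

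Positions are counted from the gene start. The capitals in Idh2 are a CCAAT at -44, and those in Mdh1 are CCAAT at -141 and -74. Ndufs8 has CCAAT at -120, -70 and -16 and an ETS core on the opposite strand at 16. In Sdhd the marked letters are an ETS core at -46 and an ERR site at 37, both on the opposite strand. Dlst has a single ETS core on the opposite strand at 2, and Dld has CCAAT at -78 and 4. So genes that fell and genes that rose both hold CCAAT and ETS letters, and none of these matches separates the directions among the 6.

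Over the listed genes, 34 had a promoter in the RefSeq table. CCAAT was found in 14 of them (41.2%), beside 37.9% of all 27025 promoters of the same length. The ETS core was in 7 (20.6%; Dlst, Idh3b, Idh3g, Ndufs3, Ndufs8, Sdhb and Sdhd), beside 9.12% of all and 11.9% of those of coding genes. The NRF1 core was in 2 (5.88% against 2.80%; Sdhb and Uqcrc1), the YY1 core in 4 (11.8% against 6.48%; Idh3g, Ndufa9, Ndufb8 and Ndufs7) and the ERR site in 1 (2.94% against 4.66%; Sdhd). The TATA box TATAAA was in 1 promoter, that of Ndufs7 (2.94% against 14.2%). Among promoters of coding genes the shares were 39.0% for CCAAT, 3.61% for NRF1, 6.37% for YY1, 4.08% for ERR and 13.3% for TATAAA. The 2 NRF1 matches of Uqcrc1 overlap on opposite strands; no other matches overlapped. The median GC content was 60.2% for the listed genes and 56.3% for coding genes. These are counts of letters and were not tested.

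At the entry to the cycle, Pdhb, the E1 beta subunit of pyruvate dehydrogenase, read 9.90 to 10.17 in control and 9.96 to 10.28 in LPS cells, a difference of 0.06 (adjusted p = 0.706). The groups overlapped. Of the 13 mitochondrial cycle enzymes, 3 fell, 2 rose and 8 did not pass the test. Counts by role in this comparison stand beside 15.8% of all genes that fell and 12.6% that rose. No role was tested as a set.

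Idh2, the NADP-dependent mitochondrial isocitrate dehydrogenase, read 10.25, 10.22, 10.28 and 10.24 on the control arrays and 9.79, 9.66, 9.78 and 9.79 on the LPS arrays. Every LPS array lay below every control array. The change was -0.49 (SE 0.06, n = 4 per group, adjusted p = 7.66e-06), so the linear level fell by 29.0%. The 3 subunits of the NAD-dependent enzyme, which carries the cycle's own isocitrate step, moved far less: Idh3a differed by -0.13 (adjusted p = 0.102), Idh3b by -0.07 (0.319) and Idh3g by -0.04 (0.657).

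The next enzyme, 2-oxoglutarate dehydrogenase, is a complex of 3 kinds of subunit, of which 2 passed the test; whether the subunits differ in their change was not tested. Dlst, its E2 subunit, read 10.10, 10.03, 9.97 and 9.97 in control and 10.47, 10.43, 10.37 and 10.36 in LPS cells. It rose by 0.39 (SE 0.05, adjusted p = 2.19e-05), with no overlap. Dld, the E3 subunit that this complex shares with pyruvate dehydrogenase, read 10.14, 9.79, 9.88 and 10.05 in control and 10.36, 10.44, 10.22 and 10.35 in LPS cells, and rose by 0.38 (SE 0.08, adjusted p = 0.00189). The control arrays of Dld were spread over a wider range than those of any other listed gene, yet all lay below the lowest LPS array. Ogdh, the E1 subunit, read 10.66 to 10.80 in control and 10.64 to 10.68 in LPS cells, a difference of -0.06 (adjusted p = 0.417).

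Succinyl-CoA ligase pairs an alpha subunit with an ATP-forming or GTP-forming beta subunit. Its alpha subunit Suclg1 differed by 0.13 (adjusted p = 0.117). The ATP-forming Sucla2 read 8.94, 8.90, 8.88 and 8.88 in control and 8.80, 8.71, 8.66 and 8.70 in LPS cells and fell by 0.18 (adjusted p = 0.0231). The GTP-forming Suclg2 read 9.78, 9.63, 9.66 and 9.64 against 9.57, 9.46, 9.51 and 9.46 and fell by 0.18 (adjusted p = 0.0451). For both beta subunits the arrays did not overlap, yet the calls were near the threshold: that of Suclg2 was lost in 8 of 9 fits with a single array left out, all but the fit without LPS array 1 (adjusted p 0.0513 to 0.137 over all lost calls). For Sucla2 it was lost when control array 1 was dropped, and when LPS array 2, 3 or 4 was (0.0507 to 0.0708). A second probe set of Suclg2 differed by -0.19 and passed in the limma fit over all probe sets (adjusted p = 0.0121).

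Citrate synthase (Cs), the first step of the cycle, differed by 0.04 (adjusted p = 0.658). Fumarase (Fh1) read 10.87 to 11.06 in control and 10.68 to 10.86 in LPS cells, a difference of -0.17 that did not pass (adjusted p = 0.0665). Mdh2, the mitochondrial malate dehydrogenase, read 11.80 to 11.87 and 11.93 to 11.99, a difference of 0.13 (adjusted p = 0.0678). In Fh1 and Mdh2 the arrays of the groups did not overlap although the test was not passed.

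All 3 cytosolic counterparts fell, and their median change of -0.45 was the lowest of the roles. Idh1, the NADP-dependent isocitrate dehydrogenase of cytosol and peroxisomes, read 10.28, 10.32, 10.40 and 10.34 in control and 9.84, 9.89, 9.64 and 9.85 in LPS cells. It fell by 0.53 (SE 0.11, adjusted p = 0.00075), the lowest change on the list. Mdh1, the malate dehydrogenase of the malate-aspartate shuttle, read 11.16, 11.07, 11.03 and 11.17 against 10.62, 10.62, 10.69 and 10.71, and fell by 0.45 (SE 0.07, adjusted p = 7.87e-05). For both genes the LPS arrays lay well clear of the control arrays. Aco1, a cytosolic aconitase that also acts as an iron-regulatory RNA-binding protein, read 8.74, 8.74, 8.74 and 8.63 against 8.48, 8.47, 8.57 and 8.59. It fell by 0.19 (adjusted p = 0.0138), a call lost with arrays centred on their medians (adjusted p = 0.0853). That setting kept 11 of the 16 calls of this comparison. Sucla2, Suclg2, Ndufs7 and Ndufa9 lost theirs in it too.

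**Figure D2:**
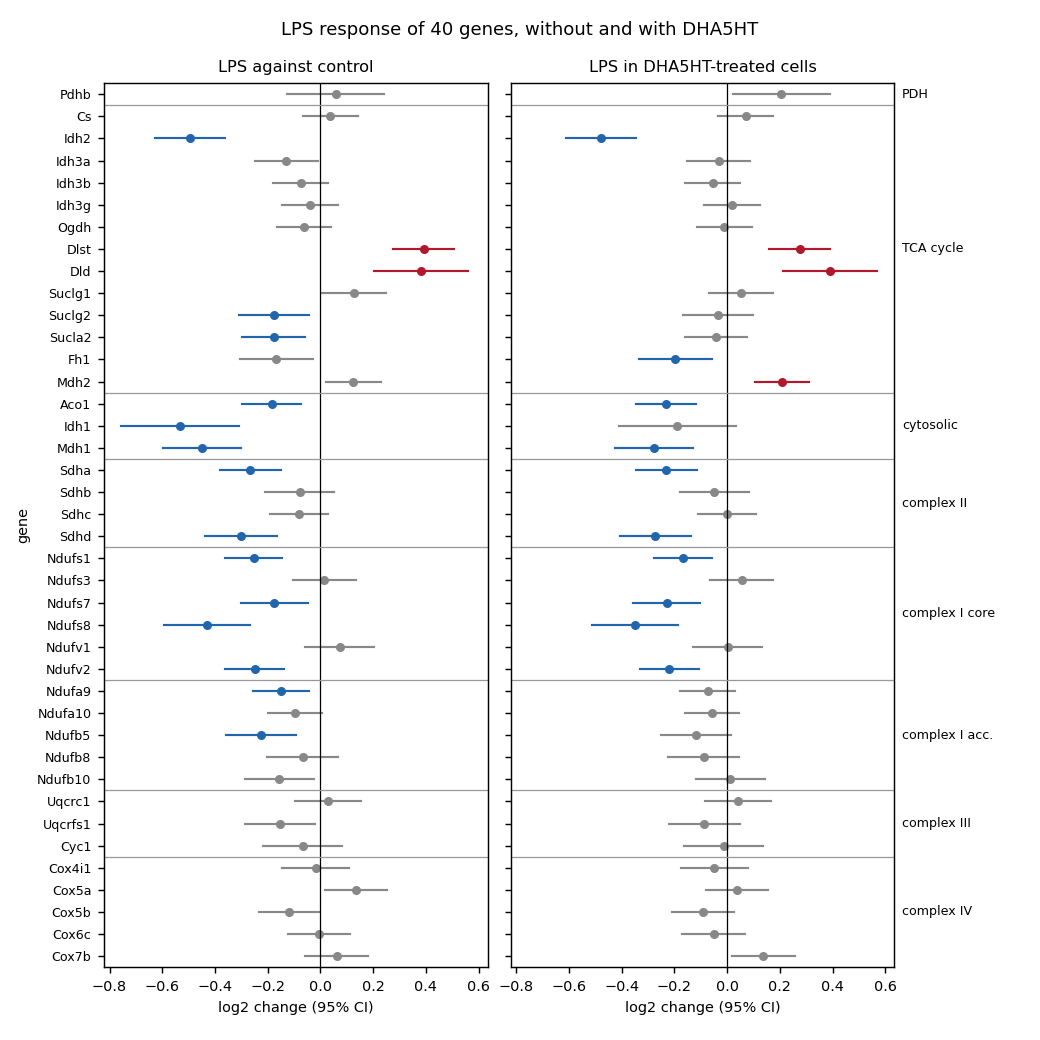
Log2 change with LPS (x axis) of 40 genes (y axis, grouped by role), in cells without DHA5HT (left) and with it (right); points are estimates from 4 against 4 arrays, lines are 95% confidence intervals, and blue and red mark genes that fell or rose at adjusted p below 0.05. Complexes III and IV hold no coloured point on either side, while Idh2, Mdh1, Sdha, Sdhd and Ndufs8 are blue and Dlst and Dld are red on both.

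Complex II, succinate dehydrogenase, belongs to both the cycle and the chain. Its flavoprotein Sdha, which binds succinate, read 9.91, 9.83, 9.82 and 9.93 in control and 9.60, 9.54, 9.65 and 9.63 in LPS cells. It fell by 0.27 (SE 0.05, adjusted p = 0.000992). The membrane anchor Sdhd read 10.22, 10.08, 10.14 and 10.21 against 9.98, 9.77, 9.78 and 9.91, and fell by 0.30 (adjusted p = 0.00143). In both genes every LPS array was below every control array. The iron-sulphur subunit Sdhb and the other anchor Sdhc each differed by -0.08 (adjusted p = 0.418 and 0.295).

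Complex I takes electrons from NADH, and 4 of its 6 core subunits on the list fell. Ndufs8, an iron-sulphur subunit near the quinone site, read 10.81, 11.05, 10.86 and 10.97 in control and 10.47, 10.52, 10.41 and 10.57 in LPS cells, a fall of 0.43 (SE 0.08, adjusted p = 0.000266). Its linear level fell by 25.8%. Ndufs1, the large iron-sulphur subunit of the NADH-oxidising arm, read 9.91, 9.76, 9.85 and 9.89 against 9.62, 9.56, 9.64 and 9.57, and fell by 0.25 (adjusted p = 0.00099). Ndufv2, which sits in the same arm, read 10.09, 10.03, 10.17 and 10.05 against 9.90, 9.84, 9.84 and 9.77, and also fell by 0.25 (adjusted p = 0.00136). None of these 3 genes had overlapping arrays.

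Ndufs7, another quinone-site subunit, read 9.58, 9.83, 9.72 and 9.74 in control and 9.55, 9.50, 9.54 and 9.58 in LPS cells. It fell by 0.17 (adjusted p = 0.0377), and the call was lost in 7 fits that left out 1 array (0.0513 to 0.126); it was kept without control array 1 and without array 1 of LPS+DHA5HT. The NADH-binding subunit Ndufv1 differed by 0.07 (adjusted p = 0.448) and Ndufs3 by 0.02 (0.889). Ndufv1, Ndufv2 and Ndufs1 belong to the same arm; whether their changes differ was not tested.

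Of 5 accessory subunits of complex I, 2 fell. Ndufb5 read 8.97, 9.07, 9.22 and 9.01 in control and 8.92, 8.73, 8.90 and 8.82 in LPS cells and fell by 0.23 (adjusted p = 0.0111); a dimmer second probe set for it differed by -0.08. Ndufa9 read 9.94, 10.01, 9.93 and 10.03 against 9.86, 9.79, 9.81 and 9.85 and fell by 0.15 (adjusted p = 0.0302), a call lost when control array 2 or 4 was dropped and when LPS array 2 or 3 was (0.0670 to 0.0865). The other 3, Ndufa10, Ndufb8 and Ndufb10, differed by -0.10, -0.07 and -0.16. All 5 accessory subunits read lower with LPS, with a median of -0.15.

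In complexes III and IV together, 0 of 8 listed subunits passed the limma test; at an unadjusted p below 0.05, 1 was higher and 2 were lower, and the median change was -0.01. In complex III the core protein Uqcrc1 differed by 0.03, the Rieske iron-sulphur protein Uqcrfs1 by -0.15 (adjusted p = 0.0817) and cytochrome c1 (Cyc1) by -0.07. In cytochrome c oxidase, complex IV, Cox4i1 differed by -0.02, Cox5a by 0.14 (adjusted p = 0.0858), Cox5b by -0.12, Cox6c by -0.01 and Cox7b by 0.06. A second probe set of Cox7b differed by -0.03 and did not pass. Cox5a read 9.20 to 9.32 in control and 9.37 to 9.44 in LPS cells, with no overlap. Among the 15 listed subunits of complexes I and II, 8 fell, 0 rose and the median change was -0.16. Over all genes the shares were 15.8% lower and 12.6% higher. The difference between the counts of complexes III and IV and those of complexes I and II was not tested.

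**Figure D3:**
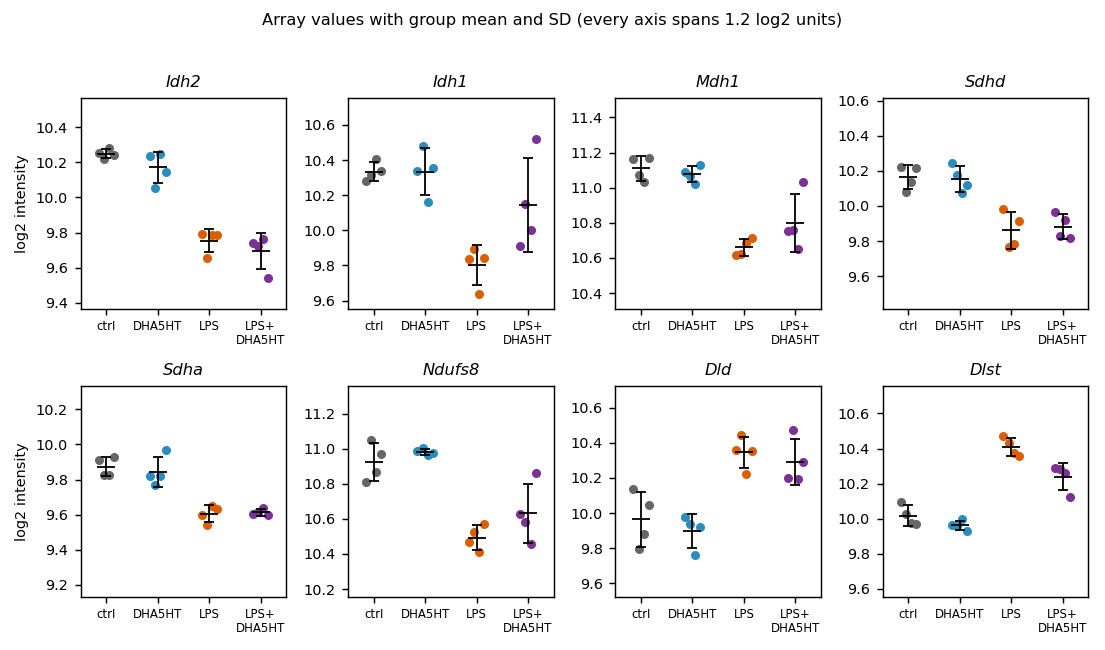
Log2 intensity (y axis; every panel spans 1.2 units) of Idh2, Idh1, Mdh1, Sdhd, Sdha, Ndufs8, Dld and Dlst on the 4 arrays of each group (x axis); points are arrays, bars are the mean and the SD. The LPS arrays are clear of the control arrays in every panel, and array 4 of LPS+DHA5HT is the highest of its group for Idh1 (10.52), Mdh1 (11.03) and Ndufs8 (10.86).

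LPS in DHA5HT-treated cells compares the LPS+DHA5HT arrays with the DHA5HT arrays. Its group means share no array with those of the comparison above. Both tests use the same estimate of spread from all 16 arrays, so their calls are not independent. Idh2, Mdh1 and the complex I and II genes named above with the lowest adjusted p fell here too, while Idh1 did not pass. Of the 40 genes, 10 fell (25%) and 3 rose (7.5%), where 15.7% of all genes fell and 12.4% rose. Among the genes brighter than the median gene 28.3% fell and 21.1% rose, so both counts of the list lie below those shares. The list's median change was -0.05, beside -0.00436 over all genes. The arrays did not overlap for 11 genes that read lower and 3 that read higher, beside 15.6% and 12.8% of all genes. With arrays centred on their medians, 4 were higher and 8 lower.

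In both LPS comparisons 11 genes passed, each in the same direction: Idh2, Aco1, Mdh1, Sdha, Sdhd, Ndufs1, Ndufs7, Ndufs8 and Ndufv2 fell, and Dlst and Dld rose. They are 68.8% of the genes called without DHA5HT and 84.6% of those called with it. The sign was the same for 38 of 40 genes, and the changes correlated across the 40 genes with Pearson's r = 0.904; genes on the same arrays are not independent, and this r is a description.

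Idh2 read 10.23, 10.05, 10.25 and 10.15 with DHA5HT and 9.74, 9.72, 9.77 and 9.54 with LPS added, a fall of 0.48 (adjusted p = 1.2e-05). Ndufs8 read 10.98, 11.00, 10.96 and 10.97 against 10.63, 10.58, 10.46 and 10.86, and fell by 0.35 (adjusted p = 0.00177). Mdh1 read 11.09, 11.07, 11.02 and 11.13 against 10.75, 10.76, 10.65 and 11.03, and fell by 0.28 (adjusted p = 0.0059). In Ndufs8 and Mdh1 the highest LPS+DHA5HT value was that of array 4, and in Mdh1 it reached the range of the DHA5HT arrays. Without that array the falls were 0.43 in Ndufs8 and 0.36 in Mdh1.

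Sdha read 9.82, 9.77, 9.82 and 9.97 with DHA5HT and 9.60, 9.61, 9.64 and 9.60 with LPS added, and fell by 0.23 (adjusted p = 0.00345). Sdhd read 10.25, 10.17, 10.07 and 10.12 against 9.96, 9.83, 9.92 and 9.82, and fell by 0.27 (adjusted p = 0.00343). Aco1 read 8.78, 8.87, 8.85 and 8.81 against 8.60, 8.65, 8.63 and 8.51, and fell by 0.23 (adjusted p = 0.00289). The groups were apart in all 3 genes. Ndufv2 fell by 0.22 (from 9.97 to 10.09 down to 9.77 to 9.83, adjusted p = 0.00396) and Ndufs7 by 0.23 (from 9.70 to 9.76 down to 9.39 to 9.60, adjusted p = 0.00715), also without overlap. Ndufs1 read 9.75, 9.68, 9.72 and 9.77 against 9.60, 9.51, 9.60 and 9.53 and fell by 0.17 (adjusted p = 0.0205); dropping DHA5HT array 1 or 4, or array 2 of LPS+DHA5HT, ended the call (0.0502 to 0.0638).

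Dld read 9.98, 9.94, 9.76 and 9.92 with DHA5HT and 10.20, 10.47, 10.19 and 10.29 with LPS added, and rose by 0.39 (adjusted p = 0.00153). Dlst read 9.96, 9.96, 10.00 and 9.93 against 10.29, 10.28, 10.26 and 10.12, and rose by 0.28 (adjusted p = 0.000764). Mdh2 read 11.69, 11.79, 11.78 and 11.75 against 11.98, 12.01, 11.91 and 11.94, and rose by 0.21 (adjusted p = 0.00324). None of the 3 overlapped. With quantile normalization repeated over the 16 arrays the Mdh2 change was 0.13 and no longer passed (adjusted p = 0.0529). Fh1 read 11.02, 10.87, 10.96 and 10.90 against 10.83, 10.72, 10.80 and 10.61, and fell by 0.20 (adjusted p = 0.031); dropping DHA5HT array 1 or 3, or array 2 or 4 of the LPS+DHA5HT group, ended the call (0.0684 to 0.108).

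Idh1, the gene with the lowest change without DHA5HT, read 10.34, 10.48, 10.16 and 10.36 with DHA5HT and 9.91, 10.15, 10.00 and 10.52 with LPS added. The difference was -0.19 (SE 0.11, adjusted p = 0.221). The value of 10.52 came from array 4, the array that stood apart; without it the change was -0.31 and passed the test (adjusted p = 0.00928). Sucla2, Suclg2, Ndufa9 and Ndufb5, which fell without DHA5HT, differed here by -0.04, -0.03, -0.07 and -0.12 and did not pass. Complexes III and IV again had 0 of 8 genes past the limma threshold.

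DHA5HT in LPS-treated cells asks whether the compound alters these genes once LPS is present. It moved 0 of the 40 genes past the limma threshold, where 0.818% of all genes rose and 0.972% fell. At an unadjusted p below 0.05, 1 gene was higher (Idh1) and 1 lower (Dlst); the lowest adjusted p was 0.123. With the replicate number as a block 647 of all genes passed in place of 337, and again 0 of the 40. The median change of the list was -0.00596, with 20 genes on each side of zero. The 95% intervals of 35 of the 40 changes lay within 0.25 of zero and those of 39 within 0.5. The exception was Idh1.

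Idh1 read 9.84, 9.89, 9.64 and 9.85 with LPS and 9.91, 10.15, 10.00 and 10.52 with LPS+DHA5HT. Every LPS+DHA5HT array lay above every LPS array, the nearest pair being 9.91 and 9.89. The difference was 0.34 (95% interval 0.12 to 0.57, adjusted p = 0.123), and 0.22 without LPS+DHA5HT array 4 (adjusted p = 0.280). Dlst read 10.47, 10.43, 10.37 and 10.36 against 10.29, 10.28, 10.26 and 10.12, a difference of -0.17 (95% interval -0.29 to -0.05, adjusted p = 0.143). Its LPS+DHA5HT arrays were all lower than its LPS arrays.

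Ogdh was the other gene whose arrays were apart, at 10.64 to 10.68 with LPS and 10.70 to 10.75 with LPS+DHA5HT, a difference of 0.06 (adjusted p = 0.631). Non-overlapping arrays were thus seen for 2 genes higher and 1 lower of the 40, beside 3.97% and 3.91% of all genes. Mdh1 differed by 0.14 (adjusted p = 0.412) and by 0.06 without array 4. Ndufs8 likewise differed by 0.14 (adjusted p = 0.463) and by 0.06 without it. Complex II gave differences of 0.01 for Sdha, 0.03 for Sdhb, 0.03 for Sdhc and 0.02 for Sdhd.

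**Figure D4:**
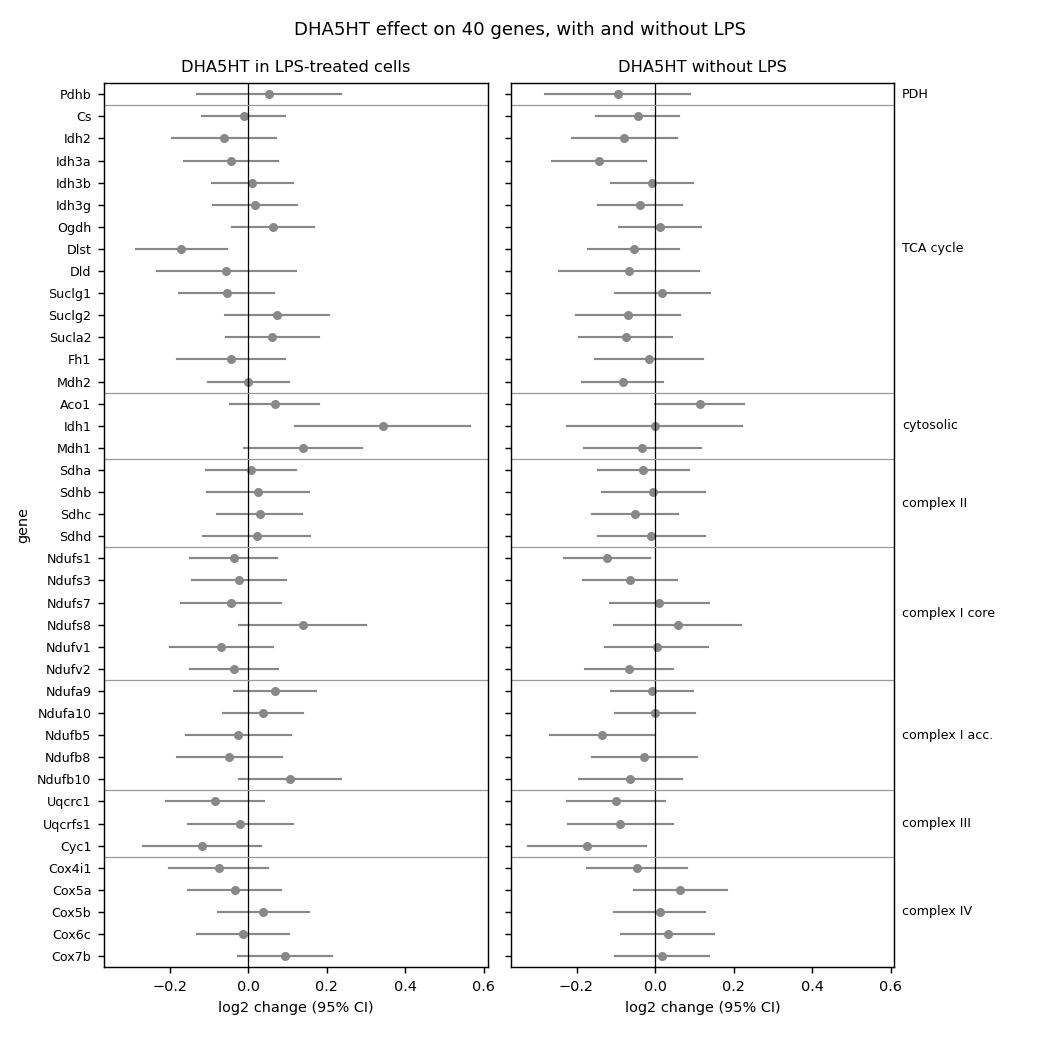
Log2 change with DHA5HT (x axis) of 40 genes (y axis, grouped by role), in LPS-treated cells (left) and without LPS (right); points are estimates from 4 against 4 arrays and lines are 95% confidence intervals. All points are grey because none passed an adjusted p of 0.05, and Idh1 in LPS-treated cells (0.34) lies farthest from zero.

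DHA5HT without LPS compares the compound with vehicle in resting cells. In limma 0 of 40 genes passed, where 0.122% of all genes rose and 0.478% fell. At an unadjusted p below 0.05, 0 were higher and 4 lower; the lowest adjusted p was 0.400. With the replicate number as a block 179 of all genes passed in place of 113, and again 0 of the 40. These 4 were Cyc1 (-0.17), Idh3a (-0.14), Ndufb5 (-0.13) and Ndufs1 (-0.12). Of the 40 genes 30 read lower with DHA5HT, and the median change was -0.04. The 95% intervals of 36 genes lay within 0.25 of zero and those of all 40 within 0.5.

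Cyc1 read 9.52, 9.79, 9.71 and 9.79 in control and 9.53, 9.56, 9.57 and 9.46 with DHA5HT; control array 1 lay inside the DHA5HT range. Aco1 read 8.74, 8.74, 8.74 and 8.63 against 8.78, 8.87, 8.85 and 8.81, a difference of 0.11 (adjusted p = 0.507) with no overlap. The only other genes without overlap were Mdh2 (11.80 to 11.87 against 11.69 to 11.79) and Ndufb5, whose nearest control and DHA5HT arrays both round to 8.97. That makes 1 gene higher and 2 lower, beside 3.03% and 2.85% of all genes.

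The difference between the DHA5HT effects tests whether the compound's change with LPS differs from its change without. Again 0 of 40 genes passed in limma, with 0.165% of all genes higher and 0.165% lower, and 1 gene was higher at an unadjusted p below 0.05. The replicate block took the calls over all genes from 62 to 96, and the listed ones stayed at 0. That gene was Idh1, at 0.34 (95% interval 0.03 to 0.66, adjusted p = 0.598), and 0.22 without array 4 of LPS+DHA5HT. The intervals were wider here, 25 of 40 lying within 0.25 of zero, and for the other 15 the interval takes in a difference of that size. The same term is the difference between the LPS changes with and without DHA5HT, so the smaller Idh1 change with DHA5HT did not pass a test of its own.

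Other genes of the pathway were taken from fixed lists by role, 132 genes of which 110 were measured; the 13 genes of the mitochondrial genome were not analysed here. With LPS against control 16 rose (14.5%) and 22 fell (20%), beside 12.6% and 15.8% of all genes and 20.9% and 28.6% of those brighter than the median gene. In DHA5HT-treated cells 20 rose (18.2%) and 17 fell (15.5%), beside 12.4% and 15.7% of all genes. The counts by list below are read against the same shares, and no list was tested as a set. Of 23 further complex I subunits, 2 rose and 3 fell, so that over all 34 measured subunits 9 fell and 2 rose. Ndufs4, an accessory subunit of the NADH-oxidising arm, rose by 0.50 (adjusted p = 1.19e-05), while Ndufv3 fell by 0.34, Ndufb3 by 0.28 and Ndufa5 by 0.26. With DHA5HT present 4 of the 34 fell and 2 rose.

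In complexes III and IV with cytochrome c, 2 of all 22 measured genes rose and 2 fell. Uqcrq, a small complex III subunit, rose by 0.27, and Uqcrh, the hinge protein of complex III, fell by 0.45 (adjusted p = 0.000107). Cox7a2l, a factor of supercomplex assembly, rose by 0.49 and its muscle-type relative Cox7a1 fell by 0.78. Cox7a2l and Uqcrh have 2 probe sets each, and only the brighter is given here. Cycs, which encodes cytochrome c, differed by 0.05 (adjusted p = 0.523); in DHA5HT-treated cells it rose by 0.19 (adjusted p = 0.00779), which was 0.10 with quantile normalization repeated (adjusted p = 0.174).

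ATP synthase had 6 of 16 genes lower (37.5%) and 0 higher: Atp5a1 fell by 0.21, Atp5g2 by 0.24, Atp5g3 by 0.22, Atp5j2 by 0.25, Atp5k by 0.30 and Atp5o by 0.26. With DHA5HT present 4 of the 16 fell. Among assembly factors 7 of 22 rose (31.8%) and 2 fell (9.09%). Cox17, the copper chaperone of complex IV, read 9.24 to 9.46 in control and 10.29 to 10.41 in LPS cells and rose by 0.97 (adjusted p = 1.03e-07). Ttc19, a complex III factor, read 6.67 to 7.01 against 7.62 to 7.72 and rose by 0.85. Cox18 rose by 0.48 and Surf1 by 0.40, both complex IV factors. The changes of Cox17 and Ttc19 were larger in size than that of any of the 40 listed genes.

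**Figure D5:**
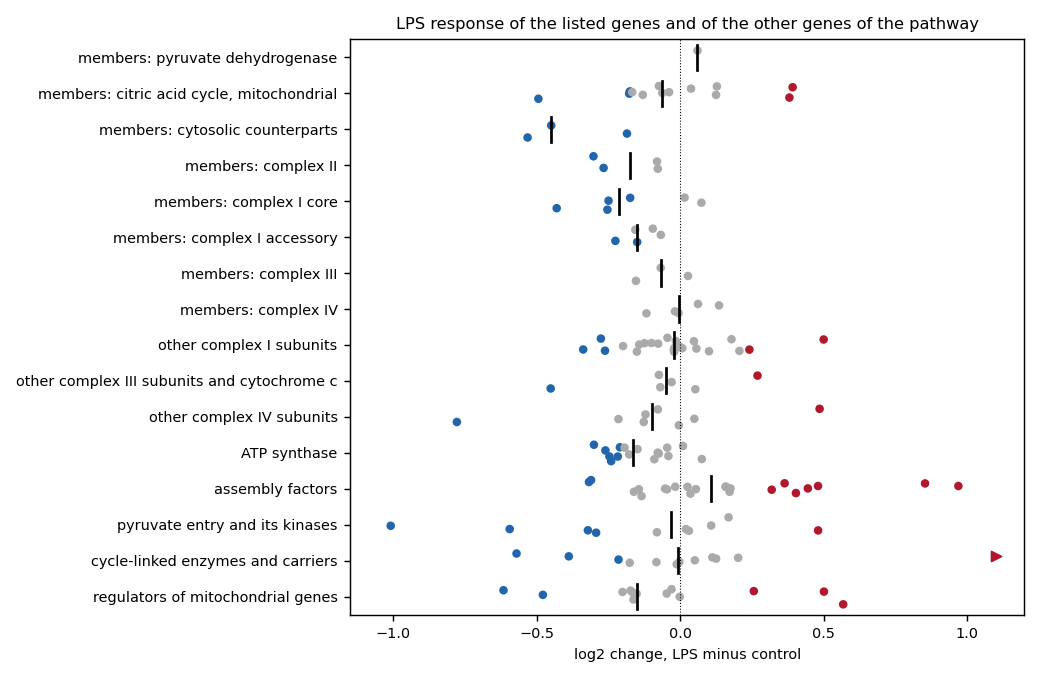
Log2 change with LPS against control (x axis) of every measured gene of the lists (rows); points are genes, blue and red mark those that fell or rose at adjusted p below 0.05, black bars are list medians, and the triangle stands for Acod1, which lies off the axis at 3.57. Assembly factors hold 7 red points of 22, ATP synthase 6 blue points of 16, and the pyruvate entry list a blue point at -1.01 (Pdk1).

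Among genes of pyruvate entry, 3 of the 4 kinases that switch off pyruvate dehydrogenase fell. Pdk1 read 8.57, 8.54, 8.34 and 8.67 in control and 7.43, 7.44, 7.45 and 7.75 in LPS cells, and fell by 1.01 (adjusted p = 1.24e-07). Pdk2 fell by 0.59 and Pdk3 by 0.29, while Pdk4 differed by 0.03. Pdp2, a phosphatase that switches the enzyme back on, also fell, by 0.32 (adjusted p = 0.00818). Pyruvate carboxylase (Pcx), which feeds oxaloacetate into the cycle, rose by 0.48. Dlat and Pdhx, further parts of pyruvate dehydrogenase, differed by 0.11 and -0.08. In DHA5HT-treated cells Pdk1 fell by 0.80, Dlat rose by 0.20 (adjusted p = 0.0072) and Pdk3 differed by -0.09.

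Of 12 enzymes linked to the cycle, 1 rose and 3 fell with LPS against control. Acod1 rose by 3.57 (adjusted p = 1.16e-09) and by 4.74 in DHA5HT-treated cells. Nnt, the mitochondrial transhydrogenase that makes NADPH, fell by 0.57 (adjusted p = 4.92e-07), Me2 by 0.39 and Glud1 by 0.21. Among 13 regulators, Nrf1 fell by 0.48 and Tfb2m, a transcription factor of the mitochondrial genome, by 0.62, while Hif1a rose by 0.50, Esrrg by 0.57 and Esrra by 0.26. All 5 passed in the same direction in DHA5HT-treated cells.

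DHA5HT in LPS-treated cells raised 4 of the 110 other genes (3.64%) and lowered 0, beside 0.818% and 0.972% of all genes; whether this differs from the 0 of 40 listed genes was not tested. Nnt read 8.51, 8.57, 8.65 and 8.70 with LPS and 8.84, 8.84, 8.88 and 8.97 with LPS+DHA5HT, and rose by 0.28 (adjusted p = 0.0216). Pcx read 6.79, 6.87, 6.95 and 6.84 against 7.22, 7.22, 7.19 and 7.18, and rose by 0.34 (adjusted p = 0.0332). Me1, the cytosolic malic enzyme, read 9.65, 9.81, 9.79 and 9.81 against 10.05, 10.14, 10.01 and 10.39 and rose by 0.38 (adjusted p = 0.0412), and Tfb2m rose by 0.30 (adjusted p = 0.0485). The arrays of Nnt, Pcx and Me1 did not overlap. Nnt, Me1 and Tfb2m have 2 probe sets each, and only the brighter is given here. All 4 calls lay near the threshold. Without array 4 of LPS+DHA5HT, the array that stood apart, none passed, with changes of 0.25 for Nnt, 0.34 for Pcx, 0.30 for Me1 and 0.28 for Tfb2m. Nnt also lost its call without LPS array 1 or 2 (adjusted p 0.0659 to 0.0732). Pcx kept its call in 1 of 8 such fits, that without LPS array 3 (0.0559 to 0.0872 in the others). Me1 kept its call only without LPS+DHA5HT array 3 (0.0615 to 0.122 in the others), and Tfb2m only without that array or LPS array 1 (0.0964 to 0.143).

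Without LPS, DHA5HT raised 0 of the 110 genes and lowered 2. Acod1 read 8.79, 9.39, 8.79 and 9.80 in control and 7.30, 7.86, 8.19 and 8.56 with DHA5HT, and fell by 1.22 (adjusted p = 0.0102); with only these 8 arrays fitted the adjusted p was 0.133. Pdk3 fell by 0.31 (adjusted p = 0.0365), a call that among 9 fits with an array left out was kept only without control array 2 (0.0519 to 0.155 in the others). In the presence of LPS these genes differed by -0.05 and -0.11.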

How the data were processed

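Total RNA of RAW264.7 cells was labelled and read on 16 Affymetrix whole-transcript arrays, 4 in each of 4 groups. The deposited values are log2 intensities that the authors made by RMA (background correction, quantile normalization and a summary per probe set), per the submitters' processing notes; the version and the annotation used are not given in the sources used here. They have no missing value and were not normalized again. RMA makes the arrays' distributions alike, so a shift shared by most genes would not be seen.

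Of 35556 probe sets, 21218 named 1 gene in the platform annotation, 1881 named several and 12457 were not listed there. Each of 18820 genes was represented by its brightest probe set on average. Further probe sets of genes on the other lists are not given. In limma 3.58.1 (R 4.3.3) a model of 4 group means over the 16 arrays, with 12 residual degrees of freedom and moderated variances, gave 5 comparisons; p-values were adjusted by Benjamini-Hochberg over all genes, with a threshold of 0.05 and two-sided tests. The code was tested on simulated data. No filter on low values was used, and the number of arrays limits the precision: the median standard error of the listed genes was 0.06.

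The 42 genes and the lists beside them were chosen with earlier results of these data known. All 42 could be named; array values were given for those past the threshold with arrays that do not overlap, up to 12 by size in LPS against control and up to 6 in each other comparison, and for those past it in both LPS comparisons. Genes of the other lists were named, up to 4 per list, by their p, except that the pyruvate kinases, Acod1, Cycs, Dlat and Pdhx were fixed. Outside that rule, the called ATP synthase genes beyond 4, Esrra, and the second probe sets of Ndufb5, Suclg2 and Cox7b were chosen after their values were seen. Array values outside the rule were given for Sucla2, Suclg2 and Ndufa9 in LPS against control. They were also given for Idh1, Mdh2 and Fh1 with LPS in DHA5HT-treated cells. Idh1, Dlst, Cyc1 and Aco1 were shown in the DHA5HT comparisons although they did not pass there. Some genes of the other lists, among them those of the mitochondrial genome, were not analysed here. Promoters came from a RefSeq table of GRCm38.p6, with the first listed start of each gene. Python 3.11.15 made the tables.

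Arrays of the same number were checked for shared deviations from their group means. The labels say nothing of a shared batch, so any pairing comes from the data. In both DHA5HT comparisons every same-numbered pair correlated above 0.1 (0.131 to 0.183 without LPS, 0.116 to 0.205 with it), and the numbers were taken to pair the arrays. In the LPS comparisons 1 of 4 pairs lay below that in each (lowest 0.0995 and 0.0699). The fit without the block was kept as the main one. The p-values and intervals given for the DHA5HT comparisons therefore take no account of this pairing. With the block, 0 of the 40 genes passed in either.

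The alternatives tried were brighter genes only, a variance trend with intensity, the replicate number as a block, repeated quantile normalization, arrays centred on their medians, all probe sets, array weights, the compared arrays alone, a threshold of 0.01 and leaving out each array.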

Additional observations from a re-analysis of the deposited data

Results flagged for a closer look

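Each of the 40 genes was looked at in each group of 4 arrays for a single array far from the other 3. Of 160 such groups 5 were picked out, and chance picks out about 1 in 20.

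Idh2 read 9.66 on LPS array 2, where the other 3 LPS arrays read 9.78 to 9.79; that array is still below every control array. Aco1 read 8.63 on control array 4, where the others read 8.74, and this is the control array nearest to the LPS range. Sdhc read 10.27 on the same control array 4, where the others read 10.16 to 10.17. Suclg1 read 9.22 on DHA5HT array 1, where the others read 9.08 to 9.09. Cox4i1 read 10.02 on LPS+DHA5HT array 1, the array with the conflicting labels, where the others read 9.93 to 9.94.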

How the results depend on the processing

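With LPS against control, 16 of the 40 genes passed. The count was 18 with a replicate block, 19 with an intensity trend, 23 (5 higher, 18 lower) when only genes brighter than the median gene were tested, 19 with quantile normalization repeated, 14 with arrays centred on their medians, 16 with all probe sets or with array weights, and 13 with the compared arrays alone. At an adjusted p below 0.01 it was 10 (2 higher, 8 lower). Leaving out 1 array gave 12 to 16. In DHA5HT-treated cells 13 passed, 14 with a replicate block, 11 to 15 over the other settings and 11 to 14 with 1 array left out. In the fit without array 1 of LPS+DHA5HT, whose labels conflict, the counts were 15 and 13. Of the called genes 11 of 16 and 10 of 13 passed in every setting at the 0.05 threshold, and 0 turned direction. Both DHA5HT comparisons and their difference kept 0 listed genes in every setting run.

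The replicate block changed the call of no gene named as passing. Over all 4 groups 15 of 16 arrays were closest to their own number, which is a hint from the data and not from the design.

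The listed genes that lost a call with LPS in any of these settings had an adjusted p above 0.01 to begin with, except Mdh2 in DHA5HT-treated cells (0.00324). All listed genes read above the median gene. Centring moved the share of higher genes among the calls with LPS from 12.5% to 35.7%, and in DHA5HT-treated cells from 23.1% to 33.3%.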

Other observations

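The 2 listed genes without a probe set of their own were read only together with a neighbour. The brighter of 2 probe sets that name both Pdha1, the E1 alpha subunit of pyruvate dehydrogenase, and Map3k15 read 8.58 ± 0.05 in control, 8.35 ± 0.08 with DHA5HT, 8.55 ± 0.05 with LPS and 8.42 ± 0.09 with LPS+DHA5HT (SD, n = 4 each). The dimmer one read 7.27 ± 0.07, 7.12 ± 0.09, 7.14 ± 0.05 and 6.97 ± 0.20 in the same order. A probe set that names both Uqcrc2, a core protein of complex III, and Pdzd9 read 10.90 ± 0.04, 10.82 ± 0.08, 10.84 ± 0.07 and 10.85 ± 0.06. Which of the named genes these values belong to cannot be told apart, and they were not tested.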
